A study of Mus musculus with 8 samples.

Results

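Mouse embryonic stem cells (ESCs) given the compounds SGC0946 and AS8351 with interleukin 6 (IL6) and its soluble receptor were compared with ESCs given SGC0946 and leukaemia inhibitory factor (LIF), across every gene with enough counts to test. The members are the 4 libraries whose column names carry these treatments, of 8 libraries in the series, and 20608 of the 55573 genes in the table were tested. Both groups are labelled 2C::GFP+ and were grown in KnockOut medium with 20% serum replacement. The group 2C::GFP+/SGC (SGC hereafter, 2 libraries) received 2 µM SGC0946 and 10 ng/ml LIF. The group 2C::GFP+/SA (SA hereafter, 2 libraries) received 2 µM SGC0946, 2 µM AS8351 and 10 ng/ml IL6 with soluble receptor, and no LIF. Both groups therefore carry SGC0946, and AS8351 and the exchange of cytokines differ together, so their effects cannot be told apart. The other libraries, untreated wild-type ESCs and untreated 2C::GFP+ cells (2 each), entered the fit to estimate the spread between replicates. Untreated 2C::GFP+ columns were identified by elimination, because they are named after a serum replacement. The labels give no strain, length of treatment, promoter of the reporter or statement that cells were sorted for it, and do not say whether replicates are separate cultures, so p-values measure only the spread between these libraries.

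SGC0946 inhibits DOT1L, the enzyme that methylates histone H3 at lysine 79 in transcribed genes. AS8351 is known as a blocker of KDM5B, a histone lysine demethylase, and competes for the iron on which such demethylases depend. LIF signals through its receptor Lifr paired with gp130, encoded by Il6st, and keeps mouse ESCs in the naive state, whereas IL6 with its soluble receptor engages gp130 without Lifr. In ESC cultures a small share of cells enters a state like that of the 2-cell embryo, in which the homeodomain factor Dux switches on Zscan4, other zygotic genes and endogenous retroviruses.

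Total counts were 133694657 and 13902619 in SGC libraries 1 and 2, and 96895327 and 12299931 in SA libraries 1 and 2. In each of the 4 groups the first library held 7.46 to 9.62 times the counts of the second, and 3 counts corresponded to 0.0224 to 0.244 CPM (counts scaled to the library total) in the 4 compared libraries before TMM factors, which are applied to all other CPM values. The SA pair differed most, with a chi-square of 41.2 per degree of freedom between its libraries against 16 to 20.0 in the other groups. The ESC markers (Pou5f1, Nanog, Sox2, Zfp42, Esrrb and Dppa5a) summed to 3543 and 3452 CPM in SGC and to 3532 and 2949 CPM in SA, with all 6 detected in every library.

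Between SA and SGC 3319 genes were called changed, 16.1% of those tested (edgeR quasi-likelihood F test, adjusted p under 0.05). Of these 1633 rose (7.92%) and 1686 fell (8.18%), and 6193 genes had an unadjusted p under 0.05. The shares of 7.92% and 8.18% are the background for the counts of every gene list that follows. The rises were larger: their median log2 fold change was 1.65 against -0.91 for the falls, and 1110 rises but 718 falls reached 2-fold. Genes that rose had a median of 9.06 CPM in SGC, genes that fell a median of 33.2 CPM, and all tested genes a median of 6.17 CPM. Over all tested genes the median was -0.02, a value that the TMM scaling holds near 0. In every called gene both SA libraries lay on the same side of both SGC libraries, as they did in 28.7% (above) and 30.1% (below) of all tested genes. The number called depended on the libraries: without SGC 1 it was 1207, without SGC 2 2081 and without SA 1 2185, and with only the 4 compared libraries 2210. With limma on log2(TPM + 0.1), where TPM is a length-scaled level with the same total in every library, 901 rose and 1581 fell, so the share of rises among calls was 36.3% in place of 49.2%. Other scalings moved it the other way, to 57.5% with RLE factors (1928 rose and 1427 fell) and 56.4% with DESeq2 (2141 rose and 1653 fell). No called gene changed sign under any of these, which the lack of overlap in every called gene made nearly certain.

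**Figure D1:**
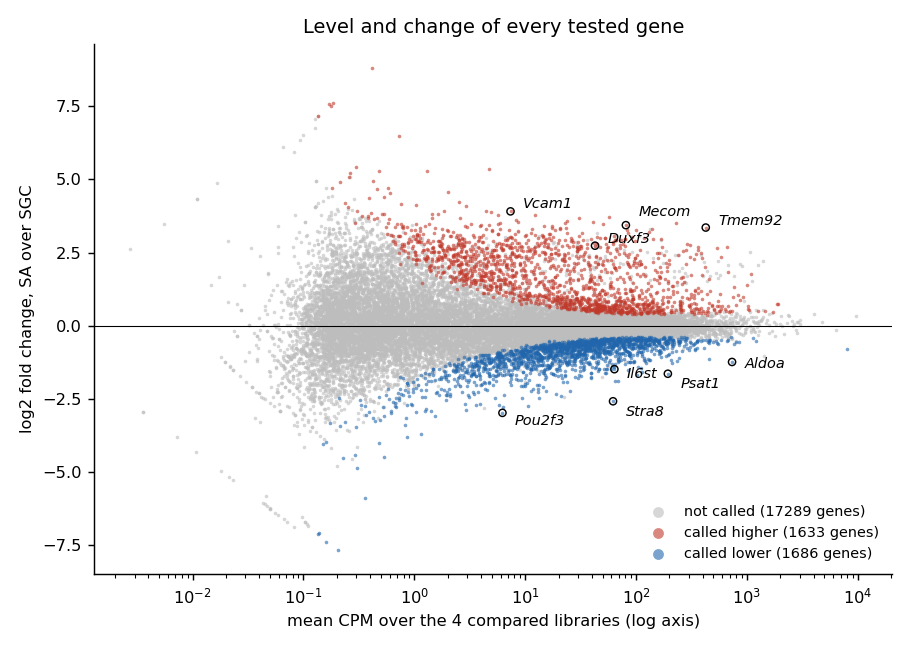
Log2 fold change of SA over SGC (vertical axis) against the mean CPM over the 4 compared libraries (horizontal log axis) for the 20608 tested genes, coloured by call. The 1633 called rises extend further from 0 than the 1686 called falls, and 9 genes described in the text are circled.

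Among named genes with at least 10 CPM in the higher group, the largest rises included a cell adhesion gene, transcription factors and a guidance receptor. Vcam1, a cell surface adhesion molecule, stood at 0.787 and 1.16 CPM in SGC and 14.3 and 13.3 CPM in SA (log2 fold change 3.91 ± 0.40 SE, adjusted p = 6.55e-05). Mecom, which encodes the zinc finger factor EVI1 (chromosome 3, 29951296 to 30548008, minus strand), stood at 15.8 and 11.3 CPM in SGC and 186 and 111 CPM in SA (3.43 ± 0.26, adjusted p = 3.48e-05). Snai1, a repressor that drives epithelial-to-mesenchymal transition, had 17.0 and 14.1 CPM in SGC and 199 and 102 CPM in SA (3.27 ± 0.28, adjusted p = 0.000127). In all 3 genes the lower SA library was several times the higher SGC library. Nrp1, a receptor for semaphorins and VEGF, rose by 3.31 ± 0.46 and the protocadherin gene Pcdh8 by 3.15 ± 0.44. The non-coding RNA Platr31, named for its link to pluripotent cells, rose by 3.18 ± 0.29. The largest rises also held Ptprt, Fgfbp1, Echdc3 and Thbs1, but their calls rested on single libraries. Without SGC 2 the adjusted p was 0.0957 for Fgfbp1, 0.138 for Echdc3 and 0.0956 for Thbs1, and without SGC 1 it was 0.0933 for Ptprt. Thbs1, a matrix glycoprotein, was at 12 and 2.92 CPM in SGC and 117 and 97.1 CPM in SA, and its adjusted p was 0.0954 without SA 1, 0.142 without SA 2, 0.116 without untreated 2C::GFP+ 2 and 0.105 without mESC 2. Echdc3 had an adjusted p of 0.0723 without untreated 2C::GFP+ 2.

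The largest falls included 2 genes of meiosis and several genes of membranes and matrix. Pou2f3, a POU-domain transcription factor, had 13.2 and 8.97 CPM in SGC and 1.44 and 1.39 CPM in SA (-2.98 ± 0.36, adjusted p = 0.000364). Stra8, the retinoic acid-induced gene that starts meiosis, had 80.9 and 132 CPM in SGC and 20.0 and 14.9 CPM in SA (-2.59 ± 0.32, adjusted p = 0.00168). Jdp2, a basic leucine zipper repressor, fell from 10.2 and 9.86 CPM to 1.67 and 1.31 CPM (-2.71 ± 0.30). Both SA libraries of these 3 genes lay well below both SGC libraries, and the choice of the largest falls required groups that do not overlap. Aurkc, the meiotic Aurora kinase, had a value of -2.74 ± 0.33, but 67.1% of its 31-base words occur in other genes. Further falls were Col5a3, a collagen chain (-2.78 ± 0.49), Acp5, an acid phosphatase (-2.47 ± 0.30), and Sema6c, a semaphorin (-2.41 ± 0.20). Fam131c (-2.37 ± 0.35), the amino acid transporter gene Slc1a4 (-2.34 ± 0.31) and Nol4l (-2.25 ± 0.24) completed them with Chac1, described with the stress genes.

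By annotated type, unprocessed pseudogenes, which arise by gene duplication, held the largest share of rises among types with at least 65 tested genes: 46 of 196 rose (23.5%) and 4 fell, with a median of 1.13. MicroRNA genes followed with 11 of 65 higher (16.9%) and 0 lower, and reads there may come from host transcripts. Genes known only as predicted or clone-named models had 413 rises and 93 falls among 5023, whereas named protein-coding genes had 1182 rises and 1575 falls among 14971.

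Many genes that mark 2-cell-like (2C-like) cells and the onset of zygotic transcription were higher in SA than in SGC. Of 49 listed genes 45 were tested, 19 rose and 0 fell, with a median log2 fold change of 2.22 against -0.02 over all tested genes. Duxf3, the annotated name of Dux (chromosome 10, 58229979 to 58232675, minus strand), stood at 9.24 and 13.4 CPM in SGC and at 71.6 and 76.6 CPM in SA. That was a 6.65-fold rise (log2 2.73 ± 0.23, adjusted p = 2.24e-05), the SA libraries were close to each other, and the call held in every alternative run. Dppa2, which acts upstream of Dux, also rose (1.07 ± 0.15, adjusted p = 0.000379), while its partner Dppa4 did not pass (-0.06 ± 0.14, adjusted p = 0.815). Nelfa, the remaining activator and also in the list of elongation genes, had a value of 2.22 and was not called. The activators summed to 978 and 873 CPM in SGC and to 4337 and 1868.5 CPM in SA, so the SA libraries differed. In 3 of the 4 activators both SA libraries lay above both SGC libraries, as in 28.7% of all tested genes, and the median of the 4 was 1.65. Among the members outside the activators and the families named in the list all 9 tested rose. Of the 19 genes of the list that rose, 14 share more than 5% of their 31-base words with other genes. So not all of these 9 are distinct in sequence. Tmem92, a membrane protein gene (chromosome 11, 94777217 to 94782703, minus strand), was at 88.2 and 63.2 CPM in SGC and 964 and 588 CPM in SA (3.35 ± 0.25, adjusted p = 9.41e-05). Arg2, a mitochondrial arginase gene, was at 16.8 and 17.6 CPM in SGC and 167 and 92.4 CPM in SA (2.92 ± 0.24, adjusted p = 3.94e-05), and 28.1% of its exons overlap an antisense gene. Zfp352, a retrotransposed zinc finger gene, was at 22.3 and 15.9 CPM in SGC and 187 and 79.8 CPM in SA (2.79 ± 0.44, adjusted p = 0.0101). Its adjusted p was 0.175 without SGC 2, 0.0709 without untreated 2C::GFP+ 2 and 0.0839 without mESC 2. In a bulk sample more cells of a type and more RNA per cell cannot be told apart, here and in every list that follows.

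The Zscan4 cluster, which Dux activates and which takes part in telomere maintenance, had 0 of 6 members called although both SA libraries lay above both SGC libraries in those named. Zscan4c was at 356 and 372 CPM in SGC and at 1699 and 637 CPM in SA (1.68 ± 0.52, adjusted p = 0.104). Zscan4d was at 540 and 621 CPM in SGC and at 2446 and 886 CPM in SA (1.52 ± 0.67, adjusted p = 0.224). SA 1 was far above SA 2 in both genes, whereas the SGC libraries were alike. Without SA 2 the adjusted p of Zscan4c was 0.000795, and it was 0.0245 with DESeq2 and 0.0338 with limma on log2(TPM + 1), over a range of 0.000795 to 0.42 in all alternatives. Tcstv1 (2.68 ± 0.82, adjusted p = 0.0979) and Tcstv3 (2.92 ± 0.90, adjusted p = 0.111) went the same way, with adjusted p of 0.000563 and 0.039 without SA 2. Reads of these families are hard to place: 91.5% of the 31-base words of Zscan4c and 60.3% of those of Duxf3 occur in other genes. Among the 10 tested members that share at most 5% of their words, 5 rose and 0 fell (median log2 fold change 1.88).

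The members of the list differed between the SA libraries as well as from SGC. SA 1 exceeded SA 2 in 42 of 45 members, by a median of 1.22 (log2), while the SGC libraries differed by a median of 0.08. Duxf3, Pramel3 and Zfp750 were the members not higher in SA 1. The 7 markers Zscan4c, Zscan4d, Zfp352, Tcstv1, Tcstv3, Duxf3 and Tmem92 summed to 443 and 559 CPM in untreated 2C::GFP+, 1078 and 1115 CPM in SGC, and 5944 and 2389 CPM in SA. Members called higher numbered 12 without SGC 1, 10 without SGC 2 and 11 without untreated 2C::GFP+ 2, and 34 with the test run without its robust option.

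**Figure D2:**
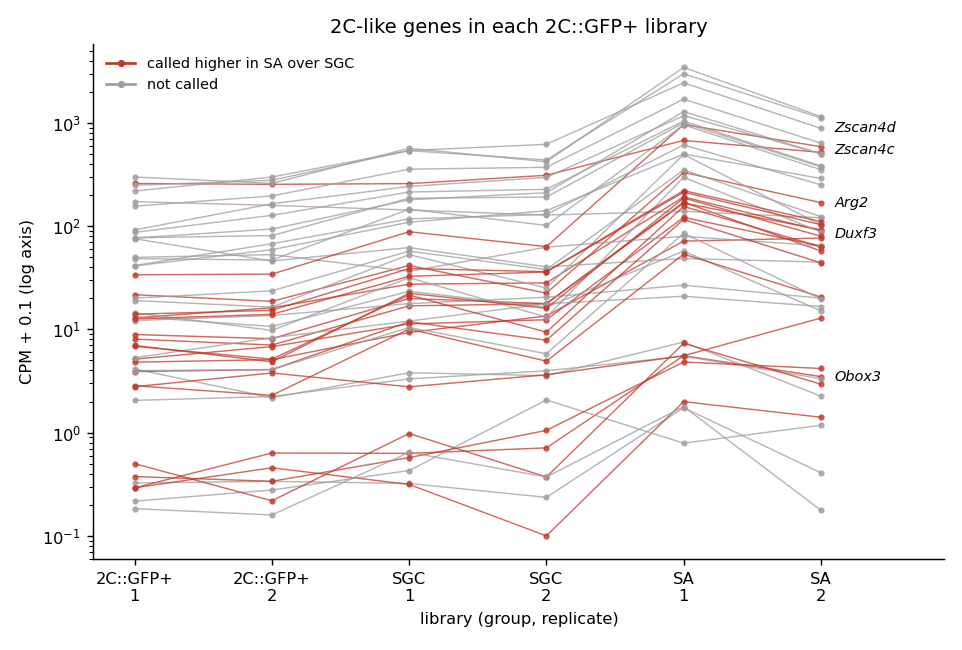
CPM of the 45 tested 2C-like genes (log axis, 0.1 added) in the 6 libraries labelled 2C::GFP+, 1 line per gene, with the 19 genes called higher in SA over SGC in red. Most lines peak in SA 1 and are lower in SA 2, while Duxf3 ends near the same level in both, 71.6 and 76.6 CPM.

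The Dux protein binds a site whose core includes TGATTNAAT. Promoters (250 bases before to 50 after the start, RefSeq, GRCm38.p6) were searched for it on both strands; overlaps with the other motifs searched were not removed. It occurred in 236 of 32851 promoters (0.718%) and in 5 of the 30 promoters of the list. Counted by gene, this was 5 of the 29 genes of the list with a promoter in the table (17.2%): Duxf3, Zscan4b, Zscan4c, Zscan4f and Pramel6. The stretch around the match is shown for Dux and for the Zscan4 gene described, with the match in capitals. They lie at chr10:58233195-58233255 (minus strand) and chr7:11005535-11005595 (plus strand). For Duxf3 the RefSeq start used here lies upstream of the start in the GENCODE coordinates given above.
Duxf3: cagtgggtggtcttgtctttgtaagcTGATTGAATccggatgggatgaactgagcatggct
Zscan4c: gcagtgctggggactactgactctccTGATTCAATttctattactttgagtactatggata
Of these 5 genes 1, Duxf3, was called higher, and the other 4 had positive values that did not pass.

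Most repressors that hold the 2C-like state in check did not pass, like most tested genes. Of 32 tested, 1 rose and 3 fell (median log2 fold change -0.11). These are 3.12% and 9.38%, against 7.92% and 8.18% of all tested genes. Chaf1b, a subunit of the chromatin assembly factor CAF-1 whose loss releases 2C-like cells, was at 115 and 135 CPM in SGC and 57.2 and 48.7 CPM in SA (-1.23 ± 0.14, adjusted p = 9.67e-05). Pcgf6, of the variant Polycomb complex PRC1.6, was at 79.0 and 79.1 CPM in SGC and 52.1 and 44.5 CPM in SA (-0.71 ± 0.14, adjusted p = 0.00384). Rif1, a telomere and replication-timing protein, went the other way, from 637 and 601 CPM to 1259 and 1004 CPM (0.87 ± 0.14, adjusted p = 0.00127). Lin28a, an RNA-binding protein, had a value of -0.55 ± 0.15 (adjusted p = 0.0264), and its adjusted p was 0.177 without SGC 2 and 0.156 without SA 1. Without SA 2, 2 repressors rose.

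Among replication-dependent histone genes, whose messages normally lack a poly(A) tail, every call in these poly(A)-selected libraries was a rise. Of 54 tested, 20 rose and 0 fell (median log2 fold change 1.63), and 44 had both SA libraries above both SGC libraries, against 28.7% of all tested genes. Their reads are hard to place: 48 share more than 5% of their 31-base words with other genes, and 19 of the rises were among these. Of the 6 that share at most 5%, 1 rose (median 1.20), so the rises are not separate measurements. Their summed level was 70.7 and 83.1 CPM in SGC and 268 and 244 CPM in SA. Hist1h1c, a linker histone gene that can also make polyadenylated RNA, was at 7.73 and 12.6 CPM in SGC and 36.8 and 38.7 CPM in SA (1.92 ± 0.25, adjusted p = 0.00026). Hist1h4i was at 13.0 and 14.9 CPM in SGC and 60.4 and 58.5 CPM in SA (2.10 ± 0.25, adjusted p = 0.000162). The SA libraries were alike in both genes, unlike in most 2C-like genes. The number of rises was 4 without SGC 1, 9 without SGC 2 and 7 without SA 1. Of 1106 olfactory receptor genes, which lie in large clusters of similar genes, 1044 had too few counts to be tested. Among the 62 tested 15 rose and 0 fell, with a median of 1.71. A gene with enough counts in the 2 SA libraries alone passes the filter, so rises are favoured among those tested. Olfr815 was at 4.8 and 2.04 CPM in SGC and 38.0 and 17.2 CPM in SA (2.95 ± 0.48, adjusted p = 0.00473), with an adjusted p of 0.0501 without untreated 2C::GFP+ 2, and 55.1% of its words occur in other genes. Only 5 rises were left without SGC 1, 2 without SGC 2 and 4 without SA 1.

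**Figure D3:**
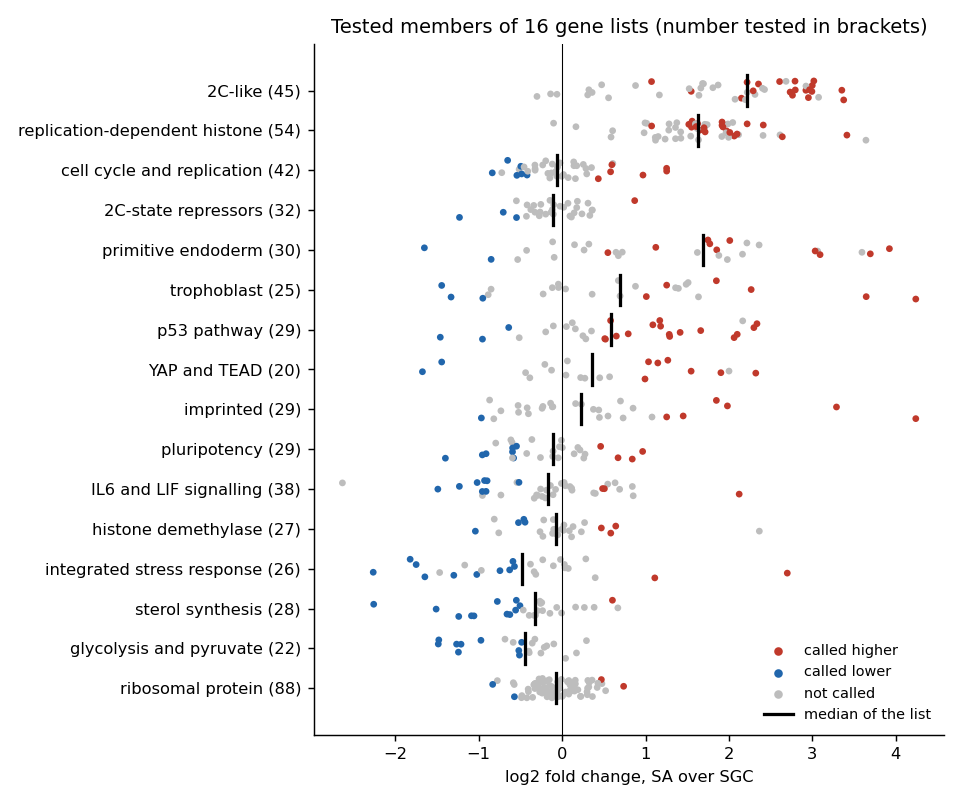
Log2 fold change of SA over SGC for the tested members of 16 gene lists (1 point per gene, spread vertically at random for visibility, black bar for the list's median). The 2C-like, histone and primitive endoderm lists have medians of 2.22, 1.63 and 1.68, and the medians of the stress response, sterol and glycolysis lists lie below 0.

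The receptors of the cytokines that were exchanged changed in opposite directions. Il6st, the shared subunit gp130 (chromosome 13, 112464070 to 112510086, plus strand), was at 90.9 and 97.2 CPM in SGC and at 30.6 and 36.7 CPM in SA. It fell by 1.49 ± 0.14 on the log2 scale (adjusted p = 3.48e-05), and the call held in every alternative. Lifr, the LIF receptor, was at 85.3 and 59.9 CPM in SGC and 36.4 and 42.1 CPM in SA (-0.90 ± 0.17, adjusted p = 0.00315), with an adjusted p of 0.0563 without SGC 1. Il6ra, the membrane receptor of IL6 whose shed or soluble form was supplied in SA, was at 20.1 and 13.4 CPM in SGC and 100 and 46.8 CPM in SA (2.12 ± 0.35, adjusted p = 0.00582). Its adjusted p was 0.102 without SGC 2, 0.0668 without untreated 2C::GFP+ 2, 0.0626 without mESC 2 and 0.0605 with only the 4 compared libraries. Per length, Il6ra stood at 8.24 and 5.64 TPM in SGC, under Il6st (29.0 and 31.9 TPM) and Lifr (28.1 and 20.3 TPM). In SA the order turned, with Il6ra at 33.1 and 19.5 TPM, Il6st at 7.89 and 11.9 TPM and Lifr at 9.67 and 14 TPM. Within each SA library Il6ra was the highest of the 3 and Il6st the lowest.

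Most other genes of the pathway did not pass. Of the 38 tested genes of IL6 and LIF signalling, receptors included, 3 rose and 8 fell (7.89% and 21.1%, against 7.92% and 8.18% of all tested genes, median log2 fold change -0.16). Stat3, the transcription factor that both cytokines activate, was at 81.1 and 84.4 CPM in SGC and 62.0 and 83.9 CPM in SA (-0.19 ± 0.14, adjusted p = 0.431). Socs3, its feedback inhibitor and direct target, was at 104 and 92.5 CPM in SGC and 110 and 91.4 CPM in SA (0.04 ± 0.14, adjusted p = 0.892). The ranges of the 2 groups overlapped in both genes, and Klf4, a further target, had a value of -0.11 ± 0.14. Tfcp2l1, a target of Stat3 in naive ESCs, fell from 250 and 300 CPM to 141 and 151 CPM (-0.91 ± 0.15, adjusted p = 0.0011), and Pecam1, an adhesion molecule of naive ESCs, from 109 and 126 CPM to 50.8 and 70.9 CPM (-0.96 ± 0.16). Mcl1, a survival gene, had a value of 0.51 ± 0.14, with an adjusted p of 0.201 without SGC 1 and 0.0815 without SA 1. Stat5b had a value of -1.23 ± 0.27, with an adjusted p of 0.0649 without SGC 1 and 0.0701 without SA 1. The feedback gene Socs2 had a value of -0.93 ± 0.24 (adjusted p = 0.028), which did not pass without SGC 1 (0.0865), SGC 2 (0.0724), SA 1 (0.102) or untreated 2C::GFP+ 1 (0.0557). For the list there were 1 rise and 3 falls without SGC 1, 1 rise without SGC 2, and 1 rise and 5 falls without SA 1.

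**Figure D4:**
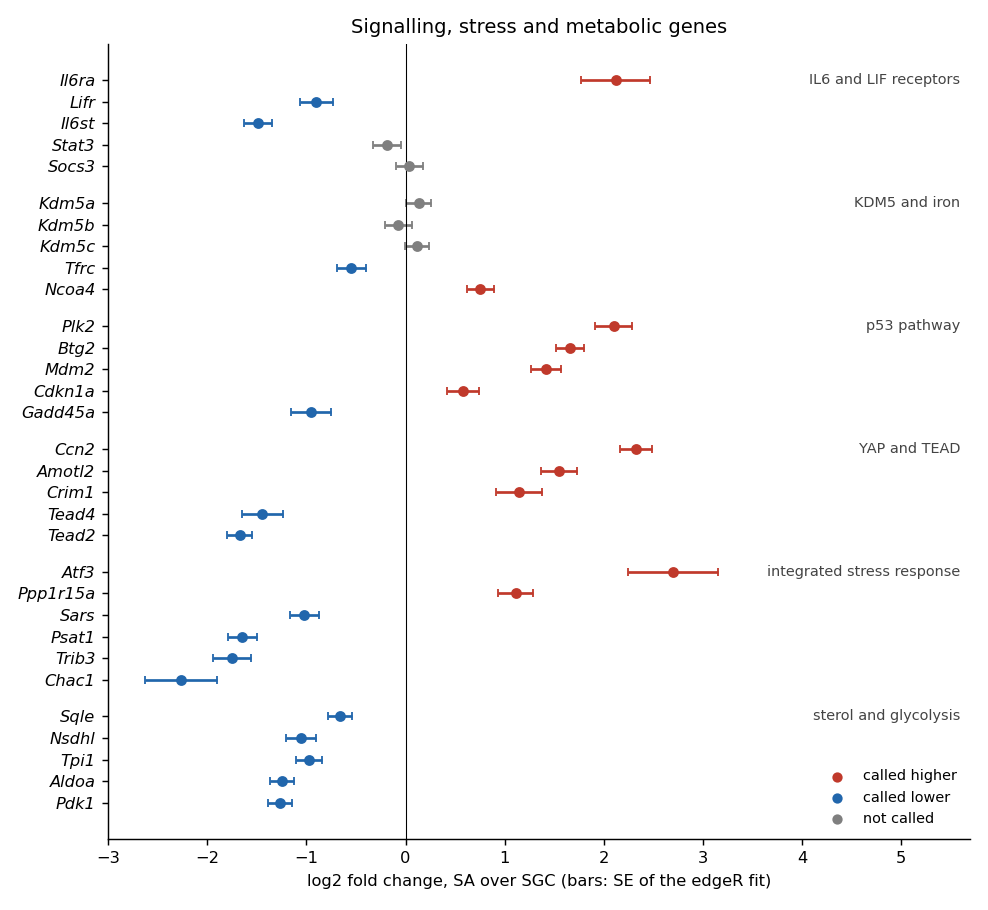
Log2 fold change of SA over SGC with its SE for 31 genes in 6 groups, coloured by call. Il6ra lies to the right of 0 with Lifr and Il6st to the left, the KDM5 genes lie near 0, and in the stress response group Atf3 and Ppp1r15a lie opposite to the other members shown.

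Genes of the demethylase family that AS8351 is described as inhibiting did not pass the test. Kdm5b was at 711 and 886 CPM in SGC and 780 and 740 CPM in SA (-0.07 ± 0.14, adjusted p = 0.786). Kdm5a (0.13 ± 0.13), Kdm5c (0.11 ± 0.12) and the LSD1 gene Kdm1a (-0.11 ± 0.12) did not pass either, and RNA levels do not measure the enzymes' activity. Across 27 tested histone lysine demethylase genes 3 rose and 4 fell (median log2 fold change -0.07). These are 11.1% and 14.8%, against 7.92% and 8.18% of all tested genes. Kdm6b, a demethylase of H3 lysine 27, fell from 124 and 115 CPM to 54.2 and 62.2 CPM (-1.04 ± 0.16, adjusted p = 0.000875), while its relative Kdm6a rose from 108 and 110 CPM to 183 and 157 CPM (0.64 ± 0.13, adjusted p = 0.00427). The list had 1 rise and 1 fall without SGC 1, 1 rise and 2 falls without SGC 2, and 2 falls without SA 1. Dot1l itself, the target of SGC0946 in both groups, was at 218 and 207 CPM in SGC and 223 and 270 CPM in SA (0.21 ± 0.15, adjusted p = 0.371). Among 25 tested genes of the DOT1L complex and of transcription elongation 4 rose and 2 fell (median log2 fold change 0.06). Ctr9, a subunit of the PAF1 elongation complex, rose from 185 and 229 CPM to 523 and 432 CPM (1.21 ± 0.14, adjusted p = 0.000149), and Hexim1, an inhibitor of the elongation kinase P-TEFb, from 119 and 122 CPM to 219 and 225 CPM (0.88 ± 0.14). Aff1, of the super elongation complex, fell by 0.77 ± 0.13 on the log2 scale. That list had 2 rises and 1 fall without SGC 1 or without SGC 2, and 1 fall without SA 1.

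Iron handling and hypoxia genes showed no common direction. Of 25 tested iron genes 2 rose and 2 fell (median log2 fold change -0.03), 8.0% each, near the 7.92% and 8.18% of all tested genes. Tfrc, the transferrin receptor whose message is stabilised when iron is scarce, was at 627 and 540 CPM in SGC and 397 and 403 CPM in SA (-0.55 ± 0.14, adjusted p = 0.0198), with an adjusted p of 0.181 without SGC 1 and 0.0576 without SA 1. Ncoa4, the receptor that delivers ferritin for breakdown, was at 55.7 and 59.6 CPM in SGC and 104 and 89.6 CPM in SA (0.75 ± 0.13, adjusted p = 0.00203). With limma Ncoa4 did not pass on log2(TPM + 0.1) (adjusted p = 0.0553) or on log2(TPM + 1) without a filter (0.0609). The list had 1 rise and 0 falls without SGC 1, and 1 rise and 1 fall without SGC 2 or SA 1. Of 29 tested hypoxia genes 5 rose and 7 fell (median log2 fold change -0.19). Egln1, an oxygen sensor that is itself an iron-dependent hydroxylase, fell from 16.5 and 17.1 CPM to 7.33 and 5.55 CPM (-1.36 ± 0.23, adjusted p = 0.00135). Pdk1, which diverts pyruvate from mitochondria, fell from 182 and 164 CPM to 73.2 and 71.0 CPM (-1.26 ± 0.12, adjusted p = 5.12e-05), and Mxi1, a Myc antagonist, by 1.20 ± 0.17 on the log2 scale. Ddit4, an inhibitor of mTORC1, rose from 77.0 and 96.2 CPM to 265 and 212 CPM (1.47 ± 0.22, adjusted p = 0.00162), and Plin2, a lipid droplet protein, by 1.09 ± 0.19. The hypoxia list had 2 rises without SGC 1, 3 without SGC 2 and 3 without untreated 2C::GFP+ 1.

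Pluripotency genes were mixed. Of 29 tested, 4 rose and 7 fell (median log2 fold change -0.11). Falls were 5 of the 19 naive-state genes (26.3%) and 2 of the 10 core genes (20.0%), against 8.18% of all tested genes. Pou5f1 was at 560 and 554 CPM in SGC and 524 and 506 CPM in SA (-0.11 ± 0.13, adjusted p = 0.621), and Nanog at 677 and 601 CPM in SGC and 853 and 604 CPM in SA (0.19 ± 0.17, adjusted p = 0.512). Without SA 2 the adjusted p of Nanog was 0.0368. Sall4, a zinc finger factor of the core network, rose from 375 and 414 CPM to 774 and 639 CPM (0.84 ± 0.14, adjusted p = 0.00136). Tcl1, a naive-state coactivator of Akt, fell from 60.2 and 65.1 CPM to 18.7 and 29.6 CPM (-1.40 ± 0.19, adjusted p = 0.000327). Sox2 had a value of -0.59 ± 0.13 (adjusted p = 0.00693, and 0.0596 without SGC 1), and Esrrb of -0.58 ± 0.13 (adjusted p = 0.00704, and 0.0589 without SGC 2). The list had 1 rise without SGC 1, 2 without SGC 2 and 7 without SA 2.

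Genes of formative and primed pluripotency, the states that follow the naive one, had 4 rises and 4 falls among 22 tested and a median of -0.10. Pou3f1, a POU factor of the formative state, was at 9.59 and 6.73 CPM in SGC and 41.9 and 68.6 CPM in SA (2.73 ± 0.29, adjusted p = 9.92e-05). Zic5, a zinc finger factor, had a value of -1.18 ± 0.24 (0.0665 without SGC 1). Fgf5, a marker of the epiblast, stayed low, at 0.387 and 0.748 CPM in SGC and 2.40 and 4.31 CPM in SA (2.67 ± 0.70, adjusted p = 0.0202), and did not pass without SGC 1 (0.188) or SA 2 (0.053). Sox3 had a value of 1.88 ± 0.34 and did not pass without SGC 1 (0.0724), SGC 2 (0.157) or untreated 2C::GFP+ 2 (0.0596). The list had 2 rises and 1 fall without SGC 1, and 2 falls without SGC 2, SA 1 or SA 2. Nodal, a ligand of the TGF-β family that these cells make, rose from 112 and 127 CPM to 256 and 356 CPM (1.36 ± 0.15, adjusted p = 0.000103). Its receptor gene Acvr2b fell from 32.6 and 36.8 CPM to 13.8 and 19.7 CPM (-1.07 ± 0.20, adjusted p = 0.0029), and Furin, a protease that processes Nodal, from 26.9 and 31.1 CPM to 12.5 and 15.3 CPM (-1.07 ± 0.22). Among the 17 tested genes of Nodal signalling 3 rose and 4 fell (median -0.08), with 1 rise and 2 falls without SGC 1 and 2 falls without SA 1 or mESC 1.

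Genes of the primitive endoderm, the first extraembryonic endoderm, had more rises than falls. Of 30 tested, 10 rose and 2 fell (median log2 fold change 1.68). Gata6, the factor that specifies this lineage, was at 1.68 and 3.74 CPM in SGC and 20.3 and 23.1 CPM in SA (3.09 ± 0.42, adjusted p = 0.000442). Pdgfra, its surface marker, was at 1.75 and 4.89 CPM in SGC and 19.4 and 31.4 CPM in SA (3.03 ± 0.49, adjusted p = 0.00265). Both genes were higher in each SA library than in either SGC library, as was every called rise. Sox17, a later regulator of the lineage, was at 1.34 and 3.13 CPM in SGC and 7.78 CPM in both SA libraries, and did not pass (1.88 ± 0.80, adjusted p = 0.153). Gata4 had a value of 1.75 ± 0.40 (adjusted p = 0.00938, and 0.119 without SGC 1). Of the matrix genes of this lineage Lamb1 rose from 92.7 and 99.7 CPM to 177 and 243 CPM (1.12 ± 0.18, adjusted p = 0.00161). Nid1 fell from 170 and 130 CPM to 89.7 and 76.7 CPM (-0.85 ± 0.15, adjusted p = 0.0019). With limma Lamb1 did not pass on log2(TPM + 1) (adjusted p = 0.0591), log2(TPM + 0.1) (0.0702) or log2(TPM + 1) without a filter (0.166). Gata4 did not pass in these runs either (0.064, 0.0863 and 0.165). Lama1 had a value of 1.77 ± 0.34, with an adjusted p of 0.0894 without SGC 1, 0.16 without SGC 2 and 0.0848 without untreated 2C::GFP+ 2. Hnf4a, a regulator of visceral endoderm, fell from 8.26 and 9.04 CPM to 3.00 and 2.39 CPM (-1.65 ± 0.32, adjusted p = 0.00404). Rises numbered 3 without SGC 1, and 1 with limma on log2(TPM + 1) and no filter. The 6 markers Gata6, Gata4, Sox17, Sox7, Pdgfra and Dab2 summed to 9.95 and 21 CPM in SGC and 69.4 and 128 CPM in SA, so SA 2 was the higher library here, and 23 of the 30 tested members were not higher in SA 1. All 6 markers were detected in each SGC and SA library.

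**Figure D5:**
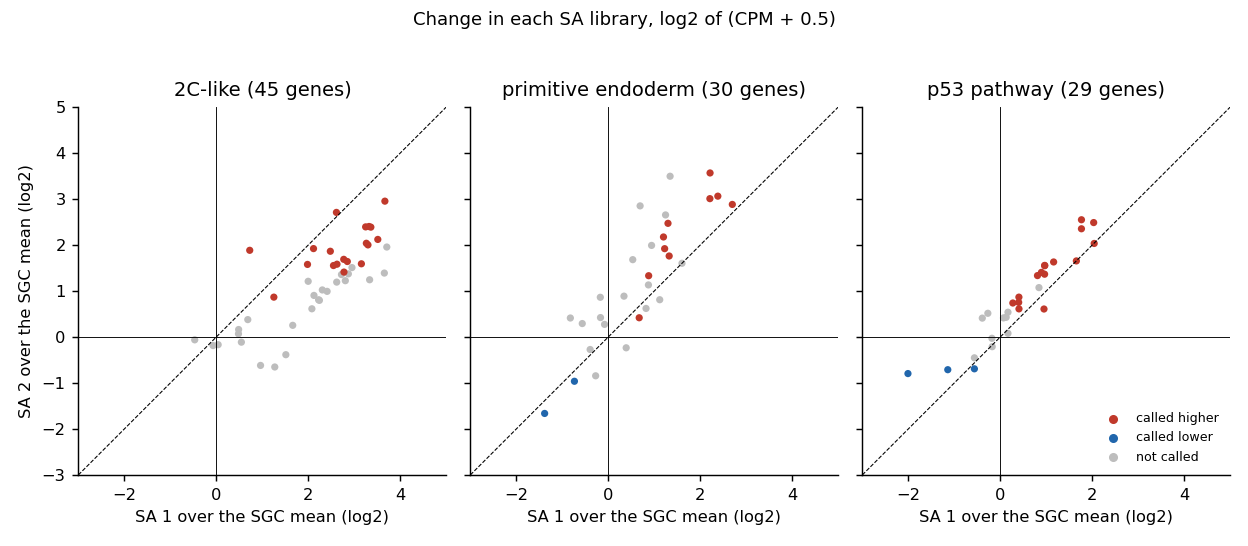
Log2 ratio of each SA library to the mean of the SGC libraries (0.5 CPM added) for the tested members of 3 lists, SA 1 on the horizontal and SA 2 on the vertical axis, with the dashed line of equality. Members of the 2C-like list lie mostly below the line (42 of 45 higher in SA 1), and those of the primitive endoderm and p53 lists mostly above it (7 of 30 and 6 of 29 higher in SA 1).

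Trophoblast genes split by role. The lineage's regulators had 0 rises and 3 falls among 13 tested, and its keratin and structure genes 2 rises and 0 falls among 5. Its placental genes had 4 rises and 0 falls among 7 tested, with 4 more not tested. Over all tested genes 7.92% rose and 8.18% fell. Peg10, Igf2 and Cdkn1c of this list are also counted with the imprinted genes. Cdx2, the founding regulator, was at 0.129 and 0.272 CPM in SGC and 0.395 and 0.462 CPM in SA (1.36 ± 0.62, adjusted p = 0.16), and Gata3 was also low and did not pass (1.49 ± 0.78). Tead4 fell from 21.3 and 14.9 CPM to 7.36 and 5.85 CPM (-1.44 ± 0.20, adjusted p = 0.000434), and Tfap2c from 32.5 and 47.0 CPM to 12.8 and 19.2 CPM (-1.33 ± 0.25, adjusted p = 0.00363). Peg10, an imprinted retrotransposon-derived gene needed in the placenta, rose from 282 and 307 CPM to 949 and 1171 CPM (1.85 ± 0.19, adjusted p = 9.19e-05). Over the whole list 6 of 25 rose and 3 fell (median 0.69), with 3 rises without SGC 1. The markers Cdx2, Eomes, Elf5, Gata3, Krt8 and Krt18 summed to 18.4 and 18.0 CPM in SGC and 23.6 and 35.0 CPM in SA, with 1 of 6 at 0 in SGC 2 and SA 2.

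Defining markers of embryonic lineages and of other cells were followed as sums. Mesendoderm markers (T, Mixl1, Gsc and Mesp1) summed to 1.83 and 1.77 CPM in SGC and 1.68 and 2.00 CPM in SA. Of 17 tested mesendoderm genes 4 rose, Snai1, Pdgfra, Kdr and Tbx4, and 0 fell (median 1.03), with 2 rises without SGC 1 or SGC 2. Kdr, a VEGF receptor, did not pass without SGC 1 (0.115), SGC 2 (0.139), SA 1 (0.0569) or SA 2 (0.0598), and Tbx4, a T-box factor, did not pass without SGC 1 (0.0951), SGC 2 (0.241) or SA 2 (0.265). Neuroectoderm markers (Sox1, Pax6, Neurog2 and Tubb3) summed to 139 and 138 CPM in SGC and 75.0 and 101 CPM in SA, most of it from Tubb3, a neuronal tubulin (122 and 121 CPM in SGC, 66.0 and 92.6 CPM in SA). Of 15 tested neuroectoderm genes 4 rose and 2 fell (median 0.38), with 1 rise and 0 falls without SGC 1, 2 rises and 1 fall without SGC 2, 2 rises without SA 1, and 1 fall without SA 2 or either untreated 2C::GFP+ library. In that list Dll1, a Notch ligand, rose from 24.6 and 25.6 CPM to 92.5 and 111 CPM (2.02 ± 0.23, adjusted p = 0.000131), and Sox1 was at 8.60 and 8.77 CPM in SGC and 3.52 and 2.62 CPM in SA (-1.47 ± 0.34, adjusted p = 0.00981, and 0.0664 without SGC 1). Fibroblast markers, which could come from feeder cells, summed to 15.2 and 14.3 CPM in SGC and 34.2 and 27.6 CPM in SA. Of these 7 markers 3 were at 0 in SGC 2 and in SA 2, and Thy1, which ESCs and other cells can also express, had a value of 1.04 ± 0.24 (0.0876 without SGC 1, 0.0808 without SA 1). Macrophage markers summed to 30.0 and 19 CPM in SGC and 24.4 and 28.0 CPM in SA, nearly all of it Cd68, with 2 to 4 of 6 at 0 in each library. The part of other cells in the results was not tested.

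Genes of the p53 pathway had more rises than falls. Of 29 tested, 16 rose and 3 fell (55.2% and 10.3%), with a median of 0.58. Mdm2, the ligase that p53 induces to limit itself, was at 134 and 147 CPM in SGC and 314 and 435 CPM in SA (1.41 ± 0.15, adjusted p = 8.72e-05). Btg2, an anti-proliferative gene, was at 42.8 and 40.5 CPM in SGC and 132 CPM in both SA libraries (1.66 ± 0.14, adjusted p = 2.32e-05). Plk2, a stress-induced kinase, was at 39.5 and 44.7 CPM in SGC and 144 and 217 CPM in SA (2.10 ± 0.19, adjusted p = 3.94e-05). The SA values of all 3 were more than 2-fold above SGC. Dcxr, a carbonyl reductase, rose by 2.34 ± 0.27. Trp53 itself did not pass (-0.11 ± 0.13, adjusted p = 0.653). Cdkn1a, the p21 arrest gene, had a smaller value, from 54.5 and 47.3 CPM in SGC to 67.2 and 86.0 CPM in SA (0.58 ± 0.16, adjusted p = 0.0287), and did not pass without SGC 1 (0.0835), SGC 2 (0.171) or SA 2 (0.103). Gadd45a had the opposite direction, with 29.7 and 26.2 CPM in SGC and 12.4 and 16.9 CPM in SA (-0.95 ± 0.20, adjusted p = 0.00544, and 0.062 without SGC 1). By role, 6 of 9 arrest genes and 7 of 12 death genes rose. With limma 5 genes rose on log2(TPM + 1) without a filter and 10 on log2(TPM + 0.1), and without SGC 1 0 genes fell. SA 1 was the higher SA library in 6 of 29 members, with a median log2 ratio of SA 1 to SA 2 of -0.40.

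Cell cycle and replication genes balanced, with 6 rises and 6 falls among 42 tested and a median of -0.06. Inhibitors of the cycle, which are the cyclin-dependent kinase inhibitors and the retinoblastoma gene Rb1, had 3 rises and 0 falls among 7. Rb1 was among the rises, and did not pass with limma on log2(TPM + 1) (adjusted p = 0.0562). Cdkn1c, the imprinted inhibitor p57, rose from 13.4 and 17.4 CPM to 39.1 and 33.7 CPM (1.25 ± 0.21, adjusted p = 0.0015), with 30.7% of its exons under an antisense gene. Gmnn, geminin, which blocks re-licensing of origins, fell from 68.4 and 63.9 CPM to 37.7 and 36.3 CPM (-0.84 ± 0.13, adjusted p = 0.000779). Ccne2, cyclin E2, rose by 0.97 ± 0.19 (adjusted p = 0.0584 without SGC 1). The list had 2 rises and 1 fall without SGC 1 and 3 falls without SA 2.

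Genes of the integrated stress response, through which cells sense amino acid shortage and unfolded protein by way of the factor ATF4, had more falls than rises. Of 26 tested, 2 rose and 10 fell (median log2 fold change -0.48). Psat1, an enzyme of serine synthesis, was at 280 and 308 CPM in SGC and 104 and 83.5 CPM in SA (-1.65 ± 0.14, adjusted p = 3e-05). Trib3, a pseudokinase, was at 40.4 and 45.5 CPM in SGC and 10.9 and 15.0 CPM in SA (-1.75 ± 0.19, adjusted p = 9.67e-05). Chac1, which degrades glutathione, was at 16.5 and 26.6 CPM in SGC and 4.34 and 4.62 CPM in SA (-2.26 ± 0.36, adjusted p = 0.00151). In all 3 genes the SA libraries lay far below SGC, and these calls held in every alternative. Sars, a tRNA synthetase gene, fell by 1.02 ± 0.15 on the log2 scale, while Atf4 itself did not pass (0.03 ± 0.14, adjusted p = 0.926). The opposite direction was taken by Atf3, from 2.04 and 3.06 CPM in SGC to 14.8 and 17.3 CPM in SA (2.7 ± 0.45, adjusted p = 0.00165, and 0.0502 without SGC 1), and by Ppp1r15a, the phosphatase subunit that ends the response, from 63.1 and 80.7 CPM to 165 and 145 CPM (1.11 ± 0.17, adjusted p = 0.00101). Without SGC 1, 1 gene rose, and limma on log2(TPM + 1) without a filter called 5 falls.

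ATF4 with a C/EBP partner binds an element that contains TGATGNAA. Searched on both strands, it occurred in 1304 of 32851 promoters (3.97%) and in 10 of the 25 promoters of the list. Counted by gene, this was 10 of the 23 genes of the list with a promoter in the table (43.5%). The 6 called genes with a match, chosen after their values were seen, are shown with the match in capitals, on the strand of the gene, so that a match on the other strand reads as the reverse complement. They lie at chr2:119351023-119351082, chr2:152344013-152344072, chr7:126625547-126625606, chr6:55037945-55038004, chr14:55540137-55540196 and chr1:191183410-191183469 in the order given.
Chac1: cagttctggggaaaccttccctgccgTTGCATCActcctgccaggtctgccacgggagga
Trib3: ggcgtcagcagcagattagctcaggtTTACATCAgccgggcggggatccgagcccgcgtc
Nupr1: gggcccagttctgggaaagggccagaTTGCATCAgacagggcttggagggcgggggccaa
Gars: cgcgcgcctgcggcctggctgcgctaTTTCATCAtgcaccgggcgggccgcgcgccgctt
Pck2: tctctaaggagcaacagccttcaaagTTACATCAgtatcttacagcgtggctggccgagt
Atf3: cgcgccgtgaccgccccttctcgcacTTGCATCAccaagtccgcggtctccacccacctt
Of these genes 5 fell and 1, Atf3, rose, so the same letters were present in genes that moved in both directions. Nupr1, a stress-induced chromatin protein, was at 10.8 and 12.5 CPM in SGC and 3.00 and 3.70 CPM in SA (-1.82 ± 0.38), and Pck2, a mitochondrial enzyme of gluconeogenesis, at 57.5 and 51.9 CPM in SGC and 29.0 and 14.5 CPM in SA (-1.30 ± 0.27). Gars, a tRNA synthetase gene, fell by 0.74 ± 0.14 on the log2 scale. Asns, Aars, Slc7a11 and Vldlr also hold a match and were not called.

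Genes of glycolysis and of sterol synthesis had more falls than rises. Of 22 tested glycolysis and pyruvate genes 0 rose and 9 fell (median log2 fold change -0.44). Aldoa, aldolase A, was at 1022 and 1046 CPM in SGC and 448 and 426 CPM in SA (-1.24 ± 0.12, adjusted p = 4.67e-05). Pfkp, a phosphofructokinase, was at 357 and 296 CPM in SGC and 161 and 120 CPM in SA (-1.21 ± 0.16, adjusted p = 0.000347), and Tpi1 fell from 266 and 262 CPM to 126 and 144 CPM (-0.97 ± 0.13, adjusted p = 0.000266). Gapdh, an enzyme of the same pathway, did not pass (0.04 ± 0.14, adjusted p = 0.883). The list had 4 falls without SGC 1. Of 28 tested genes of sterol synthesis and uptake 1 rose and 11 fell (median log2 fold change -0.33). Msmo1 fell from 65.4 and 81.8 CPM to 38.1 and 30.7 CPM (-1.09 ± 0.17) and Nsdhl from 32.5 and 35.7 CPM to 15.7 and 17.2 CPM (-1.06 ± 0.15), both enzymes late in cholesterol synthesis. Sqle, squalene epoxidase, fell by 0.66 ± 0.12 on the log2 scale. Scap, which escorts the sterol-sensing factor SREBP2, was the rise (0.60 ± 0.18, adjusted p = 0.0333), and its adjusted p was 0.128 without SGC 1, 0.109 without SGC 2 and 0.138 without SA 2. Without SGC 1, 6 genes of the list fell. Lysosome genes had 2 rises and 7 falls among 26 (median -0.03), and Tfeb, their master regulator, fell from 40.2 and 34.1 CPM to 16.5 and 16 CPM (-1.19 ± 0.15, adjusted p = 0.000231). That list had 0 rises and 3 falls without SGC 1, 4 rises and 4 falls without SA 1, and 4 falls without SGC 2, SA 2 or mESC 1.

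Among genes of YAP and TEAD, the effectors of Hippo signalling, 6 of 11 tested targets rose and 2 TEAD genes fell. Of all 20 tested, 7 rose and 2 fell (median log2 fold change 0.36). Ccn2, a matricellular protein and a widely used YAP target, was at 32.9 and 33.0 CPM in SGC and 176 and 153 CPM in SA (2.32 ± 0.16, adjusted p = 1.04e-05), with 23.2% of its exons under an antisense gene. Amotl2, a YAP target that feeds back on it, was at 81.5 and 74.9 CPM in SGC and 230 and 227 CPM in SA (1.55 ± 0.18, adjusted p = 0.000188). Tead2, the TEAD factor of early embryos, was at 151 and 160 CPM in SGC and 45.3 and 52.5 CPM in SA (-1.67 ± 0.13, adjusted p = 1.7e-05). Both libraries of each group were close together in these 3 genes. Crim1 had a value of 1.15 ± 0.23 and Cdc42ep3 of 0.99 ± 0.20, with adjusted p of 0.0604 and 0.0547 without SGC 1. Yap1 did not pass (0.06 ± 0.13, adjusted p = 0.798). The list had 3 rises without SGC 1.

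TEAD factors bind GGAATG. Searched on both strands, it occurred in 4817 of 32851 promoters (14.7%) and in 13 of the 21 promoters of the list. Counted by gene, this was 11 of the 17 genes of the list with a promoter in the table (64.7%). The 4 that rose, chosen after their values were seen, are shown as above, at chr9:102717713-102717770, chr3:145650057-145650114, chr17:78200143-78200200 and chr1:189728096-189728153.
Amotl2: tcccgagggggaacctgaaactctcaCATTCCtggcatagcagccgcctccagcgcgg
Ccn1: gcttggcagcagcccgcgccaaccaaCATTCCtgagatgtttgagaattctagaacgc
Crim1: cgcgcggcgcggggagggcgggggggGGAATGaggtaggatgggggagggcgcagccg
Ptpn14: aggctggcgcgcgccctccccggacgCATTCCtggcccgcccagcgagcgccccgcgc
Ccn2 had no match in its window, and the remaining genes with a match were not called or not tested.

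Targets of ERK and Wnt signalling had more rises than falls but small numbers. Among 20 tested MEK-ERK target genes 5 rose and 1 fell (median 0.14), with 2 rises without SGC 1, 3 without SGC 2, and 0 falls without SGC 1, SGC 2 or SA 1. Spry2, a feedback inhibitor of receptor tyrosine kinases, rose from 71.2 and 91.6 CPM to 152 and 169 CPM (0.98 ± 0.14, adjusted p = 0.000519). Dusp4, an ERK phosphatase, was at 8.13 and 14.1 CPM in SGC and 30.2 and 58.2 CPM in SA (2.01 ± 0.41, adjusted p = 0.0132, and 0.0838 without SGC 1). Among 20 tested Wnt target genes 5 rose and 1 fell (median -0.08), with 2 rises without SGC 1, 3 without SGC 2, and 0 falls without SGC 1, SA 1 or untreated 2C::GFP+ 1. Axin2, a feedback inhibitor of β-catenin, rose from 24.4 and 21 CPM to 71.3 and 73.6 CPM (1.67 ± 0.18, adjusted p = 0.0001). Dkk1, a secreted Wnt antagonist, was at 0.201 and 0.272 CPM in SGC and 6.62 and 11.6 CPM in SA (5.36 ± 0.68, adjusted p = 0.000257). These were 28 and 4 counts of Dkk1 in SGC and 604 and 151 counts in SA, with both SA libraries far above SGC. Of 31 tested matrix and adhesion genes 5 rose and 4 fell (median 0.04), with 3 rises without SGC 1 or untreated 2C::GFP+ 2 and 2 without SGC 2. Gja1, connexin 43, rose from 76.9 and 69.1 CPM to 194 and 244 CPM (1.58 ± 0.23, adjusted p = 0.00171), and Itga5, the fibronectin receptor chain, fell from 182 and 202 CPM to 87.2 and 107 CPM (-0.99 ± 0.15, adjusted p = 0.000682).

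Imprinted genes, expressed from 1 parental allele, had 6 rises and 1 fall among 29 tested, with a median of 0.23. H19, a growth-restricting non-coding RNA (chromosome 7, 142575529 to 142578143, minus strand), was at 3.76 and 3.87 CPM in SGC and 40.4 and 33.9 CPM in SA (3.29 ± 0.30, adjusted p = 3.48e-05). Igf2, the growth factor gene beside it, was at 0.308 and 0.136 CPM in SGC and 6.40 and 3.31 CPM in SA (4.24 ± 0.59, adjusted p = 0.000392), and 62.8% of its exons overlap another gene on the same strand, so its value is uncertain. Plagl1, a zinc finger gene of the imprinted network, rose from 12.9 and 14.1 CPM to 35.6 and 38.1 CPM (1.45 ± 0.18, adjusted p = 0.000169). In all 3 genes both SA libraries lay above both SGC libraries, as in every called rise. Phlda2, a restrictor of placental growth, went down, from 57.3 and 64.8 CPM to 29.8 and 32.7 CPM (-0.97 ± 0.18, adjusted p = 0.00282). Without SGC 2, 4 imprinted genes fell. Of 29 tested Hox genes, which pattern the body axis, 3 rose and 0 fell (median 0.80). The rises are 10.3%, near the 7.92% of all tested genes, of which 8.18% fell. Hoxd13 was at 6.14 and 7.88 CPM in SGC and 29.4 and 28.7 CPM in SA (2.07 ± 0.26, adjusted p = 0.000203), and Hoxa13, its counterpart in another cluster, at 0.258 and 0.136 CPM in SGC and 1.99 and 3.00 CPM in SA (3.47 ± 0.71).

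Genes of germ cells and meiosis had 3 rises and 4 falls among 30 tested (10.0% and 13.3%, near the 7.92% and 8.18% of all tested genes) and a median of 0.16. Beside Stra8, Smc1b, a meiotic cohesin subunit, fell from 15.1 and 18.5 CPM to 6.08 and 5.85 CPM (-1.48 ± 0.25, adjusted p = 0.00169), and Prdm1, a factor that specifies primordial germ cells, from 14 and 15.7 CPM to 4.93 and 6.78 CPM (-1.37 ± 0.22, adjusted p = 0.0012). There were 0 rises without SGC 1 and 1 without SA 1. In the retinoic acid pathway 4 of 20 tested genes rose and 2 fell (median 0.50), with 0 rises without SGC 1 and 2 without SGC 2. Rara, a retinoic acid receptor, fell from 96.8 and 118 CPM to 40.1 and 56.7 CPM (-1.15 ± 0.18, adjusted p = 0.000841). Rxra, the partner of nuclear receptors, was at 78.7 and 57.6 CPM in SGC and 449 and 201 CPM in SA (2.25 ± 0.38, adjusted p = 0.0145). Its adjusted p was 0.0519 without SGC 1, 0.195 without SGC 2, 0.102 without untreated 2C::GFP+ 2 and 0.102 without mESC 2. Polycomb genes had 5 rises and 4 falls among 28 (median -0.04), with 1 rise without SGC 1 or SGC 2 and 2 without SA 1. Phf19, which recruits the complex PRC2, fell from 20.9 and 18.1 CPM to 7.20 and 8.47 CPM (-1.33 ± 0.23, adjusted p = 0.00176), and Phc2, of the complex PRC1, rose from 34.9 and 42.3 CPM to 76.1 and 83.6 CPM (1.05 ± 0.15, adjusted p = 0.000435).

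Genes of the cytosolic ribosome showed how far the SA libraries differ from each other. Among 88 tested ribosomal protein genes 2 rose and 2 fell (median log2 fold change -0.07), but 85 were higher in SA 1 than in SA 2. Their summed level was 53465 and 57262 CPM in SGC and 66881 and 44872 CPM in SA, so the SGC values lay between those of the SA libraries. Without SA 1, 36 of these genes fell, and without SA 2, 19 rose. The 7 tested mitochondrially encoded protein genes had 0 calls, and without SA 2 5 of them rose. The cytochrome oxidase gene mt-Co1 was at 8065 and 9131 CPM in SGC and 11919 and 9631 CPM in SA (0.33 ± 0.14, adjusted p = 0.141).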

How the data were processed

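Poly(A)-selected RNA of 8 mouse ESC libraries in 4 groups of 2 was sequenced. A first deposited table holds raw counts per gene and a second the authors' TPM values, with 1 column per library in each. Per the submitters' processing notes the tools were STAR 2.7.4a, featureCounts 2.0.0, Trim Galore 0.6.5, FastQC 0.11.9 and Cell Ranger and the builds mm10 and GRCm38, with no roles stated. Whether reads were counted by strand is not given in the sources used here. All deposited counts were tested with edgeR 4.0.16 in R 4.3.3 (TMM factors, filterByExpr, robust quasi-likelihood F test, Benjamini-Hochberg adjustment over all 20608 tested genes, adjusted p under 0.05), with 1 term per group over all 8 libraries and 4 residual degrees of freedom before moderation. SE was taken as |log2 fold change| over the root of the F statistic. CPM values use TMM-scaled library sizes. The test was also run on simulated counts, and the outcome is not reported here. With 2 libraries a group, an exact permutation test of 1 gene cannot reach the threshold and none was run.

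Members and gene lists were chosen with earlier results of these data known. Genes were named by a rule: the 12 largest called rises and falls with non-overlapping groups and at least 10 CPM, per list at most 4 called genes of the commoner direction and 2 of the opposite one, ordered by adjusted p, 1 member per role of the main lists, and a set of defining genes. Dppa2, Dppa4, Nelfa, Trp53, Yap1, Atf4, Gapdh, Nupr1, Gars, Pck2, Ccn1 and Ptpn14 fall outside it and were chosen after their values were seen. Some genes that the rule names are not reported here. Shared sequence was measured as the percentage of a gene's 31-base words found in other genes. Alternatives used DESeq2 1.42.0, limma 3.58.1 on log2 TPM, other filters and scalings, a replicate block, thinned counts and fewer libraries. Leaving out both mESC libraries was chosen after seeing the data.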

Additional observations from a re-analysis of the deposited data

How the results depend on the processing

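Over 21 alternatives no called gene changed sign. Because the SA and SGC libraries did not overlap in any called gene, these runs could hardly turn a sign. With limma on log2(TPM + 1) and no filter 1383 genes were called, 667 higher and 716 lower, and the counts fell to 1 for primitive endoderm rises, 2 for IL6 and LIF falls, 5 for p53 rises, 5 for stress response falls and 9 for histone rises. With limma on log2(TPM + 0.1) 901 genes rose, with 6 primitive endoderm and 10 p53 rises. With only the 4 compared libraries 2210 genes were called, 962 of them lower. The 2C-like rises numbered 29 with a stricter filter (1 CPM in 2 libraries), 30 with limma on log2(TPM + 1) and 34 without the robust option. Leaving out each library in turn gave 1207 to 3324 calls, 604 to 1837 rises and 603 to 1674 falls. The same ranges were 10 to 28 for 2C-like rises, 3 to 13 for primitive endoderm rises, 3 to 9 for IL6 and LIF falls, 11 to 16 for p53 rises, 7 to 11 for stress response falls, 4 to 10 for glycolysis falls, 6 to 11 for sterol falls and 4 to 25 for histone rises. Where a library left out leaves 1 in its group, that library is assumed to vary like the other groups. The cause of these differences was not tested.

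With a replicate block 4406 genes were called, 2125 higher and 2281 lower. Deviations of same-numbered libraries correlated at 0.04 to 0.14 between groups, and the labels do not tie the numbers to a shared culture or day, so the numbers were not taken as pairs. Replicate numbers also separate deep from shallow libraries. Depth limits the low genes: before TMM factors 3 counts were 0.0224 CPM in SGC 1 but 0.244 CPM in SA 2.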
